A study of Mus musculus with 12 samples.

Results

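Interneuron precursors (Cluster 3) were compared with the cortical radial glial cells named RGC 1 (Cluster 2) inside each embryonic mouse brain. The members were all nuclei that the study had placed in these 2 clusters, 4074 nuclei in Cluster 3 and 4346 in Cluster 2, together 8420 of the 50550 nuclei in its 25 clusters. For each of 11 embryos the counts of unique molecular identifiers (UMIs), which each mark 1 captured RNA molecule, were summed over the nuclei of each cluster, and the 2 sums of the same embryo were set against each other. Cluster 3 held 97 to 870 nuclei per embryo and Cluster 2 held 177 to 753.

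The nuclei came from the cortex of C57BL/6J embryos labelled embryonic day 14 and were profiled by droplet single nucleus RNA sequencing (snRNAseq). The dams had received daily i.p. injections of saline or of ethanol (EtOH) from neurulation into cortical neurogenesis, as a model of moderate prenatal alcohol exposure (PAE). There were 5 saline embryos, S1-1 and S1-2 from dam S1 and S2-1, S2-2 and S2-4 from dam S2. There were 6 EtOH embryos, E1-1 and E1-2 from dam E1 and E2-1 to E2-4 from dam E2. All groups were otherwise untreated, and dams S1 and E1 made up the batch labelled 1 and dams S2 and E2 the batch labelled 2. Littermates were counted as separate samples, so p-values measure the spread between embryos of only 2 dams per treatment.

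Cortical excitatory neurons and cortical interneurons arise from separate progenitor zones of the telencephalon. Dorsal radial glia, which express Emx1, Pax6 and Lhx2, line the cortical wall and give rise to projection neurons. Ventral progenitors of the ganglionic eminences, which express Dlx1 and Dlx2, give rise to interneurons that migrate into the cortex, and Sonic hedgehog from the ventral side sets part of this division. Both kinds of progenitor divide at the ventricle and share radial glial genes such as Sox2 and Nes.

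The promoters of 4 genes are printed because these genes separated the 2 pools most clearly within their families: the neighbouring ventral genes Dlx1 and Dlx2, and the dorsal genes Emx1 and Dmrt3. Each sequence is the 250 bases before a RefSeq gene start on mouse build GRCm38.p6, read 5′ to 3′ on the gene's strand: chr2:71529195-71529444 (+) for Dlx1, chr2:71546755-71547004 (-) for Dlx2, chr6:85187681-85187930 (+) for Emx1 and chr19:25610287-25610536 (+) for Dmrt3. Capitals mark matches to the E-box CANNTG, the core that basic helix-loop-helix proteins such as NEUROG2 bind.
Dlx1: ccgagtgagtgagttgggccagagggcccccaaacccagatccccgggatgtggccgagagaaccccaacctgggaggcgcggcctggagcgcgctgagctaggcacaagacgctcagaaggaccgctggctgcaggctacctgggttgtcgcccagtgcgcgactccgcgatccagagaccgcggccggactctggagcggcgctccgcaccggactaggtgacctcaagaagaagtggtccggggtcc
Dlx2: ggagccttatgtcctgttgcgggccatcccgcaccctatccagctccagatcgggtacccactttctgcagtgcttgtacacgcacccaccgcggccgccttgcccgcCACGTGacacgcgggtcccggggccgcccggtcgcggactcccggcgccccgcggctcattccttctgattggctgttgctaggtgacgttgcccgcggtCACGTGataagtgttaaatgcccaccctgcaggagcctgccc
Emx1: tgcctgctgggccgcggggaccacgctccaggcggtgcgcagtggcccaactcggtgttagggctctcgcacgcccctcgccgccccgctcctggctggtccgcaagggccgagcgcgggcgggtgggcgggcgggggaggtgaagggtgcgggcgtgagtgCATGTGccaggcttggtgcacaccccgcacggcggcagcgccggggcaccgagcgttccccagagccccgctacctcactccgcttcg
Dmrt3: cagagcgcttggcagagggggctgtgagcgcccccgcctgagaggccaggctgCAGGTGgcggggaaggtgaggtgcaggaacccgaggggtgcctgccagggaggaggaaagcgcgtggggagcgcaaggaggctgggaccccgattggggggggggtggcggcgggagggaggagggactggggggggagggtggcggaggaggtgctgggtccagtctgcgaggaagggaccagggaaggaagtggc
The Dlx1 window held 0 E-boxes, the Dlx2 window 2, and the Emx1 and Dmrt3 windows 1 each. Among 32851 mouse promoters cut the same way, 66.2% held at least 1 CANNTG, with a median of 1. The homeodomain core TAATTA, found in 4.84% of promoters, and the E-boxes CAGCTG (13%) and CAGATG (14.4%), all searched on both strands, did not occur in these 4 windows. GC content was 68.0% for Dlx1, 66.4% for Dlx2, 75.6% for Emx1 and 72.4% for Dmrt3, beside a median of 52.4% over all promoters. In the GENCODE annotation the spans of Dlx1, Emx1 and Dmrt3 reach over part or all of these windows, since other transcripts start farther upstream.

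Summed UMIs per embryo ran from 603137 to 7410460 in Cluster 3 and from 1317960 to 7306260 in Cluster 2. The median nucleus held fewer UMIs in Cluster 3 than in Cluster 2 in 11 of 11 embryos, with a difference of -1379 ± 461 UMIs (SD, n = 11; exact two-sided sign-flip permutation test, p = 0.000977, the smallest p this test can give). When every nucleus was thinned to 2000 UMIs, which left out 58 shallower nuclei of Cluster 3 and 9 of Cluster 2, the median number of genes per nucleus was 1286 to 1333 in Cluster 3 and 1289 to 1339 in Cluster 2, a difference of -3.09 ± 7.73 genes (SD, n = 11; exact sign-flip permutation p = 0.217). In summed counts, fewer nuclei with a transcript and fewer transcripts per nucleus cannot be told apart. 13 barcode sequences of these clusters occurred in more than 1 embryo.

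Embryo S2-4, labelled saline, stood with the EtOH embryos in both clusters. Over 7122 genes its mean absolute log2 distance in Cluster 2 was 0.222 to the mean of the other saline embryos and 0.107 to that of the EtOH embryos, and in Cluster 3 it was 0.236 and 0.140. In Cluster 2, 197 genes of S2-4 differed more than 2-fold from the saline mean and 6 from the EtOH mean. In Cluster 3 these numbers were 192 and 7. The other 4 saline embryos were nearer to the saline mean in both clusters, and all 6 EtOH embryos were nearer to the EtOH mean. Depth moved with both the treatment and this placing: the median UMIs per nucleus in Cluster 3 were 6901 to 7645 in the other 4 saline embryos, 3142 to 5600.5 in the EtOH embryos and 5253 in S2-4, and in Cluster 2 they were 8709.5 to 9599.5, 4263.5 to 6944 and 6651. The part of depth in the differences between treatments was not tested. Comparisons of treatments are given with and without the library labelled S2-4. The comparison of clusters does not use the treatment label, and without this embryo it called 650 genes in place of 691.

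Differences below are log2 differences of Cluster 3 minus Cluster 2 with their SE, from edgeR's quasi-likelihood test with the embryo as a block, and levels are CPM (counts per 1000000 counts) in the summed nuclei of an embryo. Embryos counted as higher or lower for a gene were compared on TMM-scaled log2 CPM, which can differ in sign from the CPM where these are nearly equal. A gene was called at a Benjamini-Hochberg adjusted p under 0.05 together with a fold above 2. Of 11707 genes tested, 691 (5.90%) were called, 445 (3.80%) higher in Cluster 3 and 246 (2.10%) lower, and 11016 were not called. At any fold, the adjusted p of 4247 genes (36.3%) was under 0.05, 2182 (18.6%) higher and 2065 (17.6%) lower. The levels of the 11 embryos did not overlap between clusters for 674 genes (5.76%), 405 higher in Cluster 3 (3.46%) and 269 lower (2.30%). The clusters had been made from the expression of these same nuclei, so these calls describe how steady a difference was over embryos and are no independent test of the clusters. A gene that passed the filter on low counts only through the cluster where it is high had to differ, so counts of called members are given as descriptions.

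**Figure D1:**
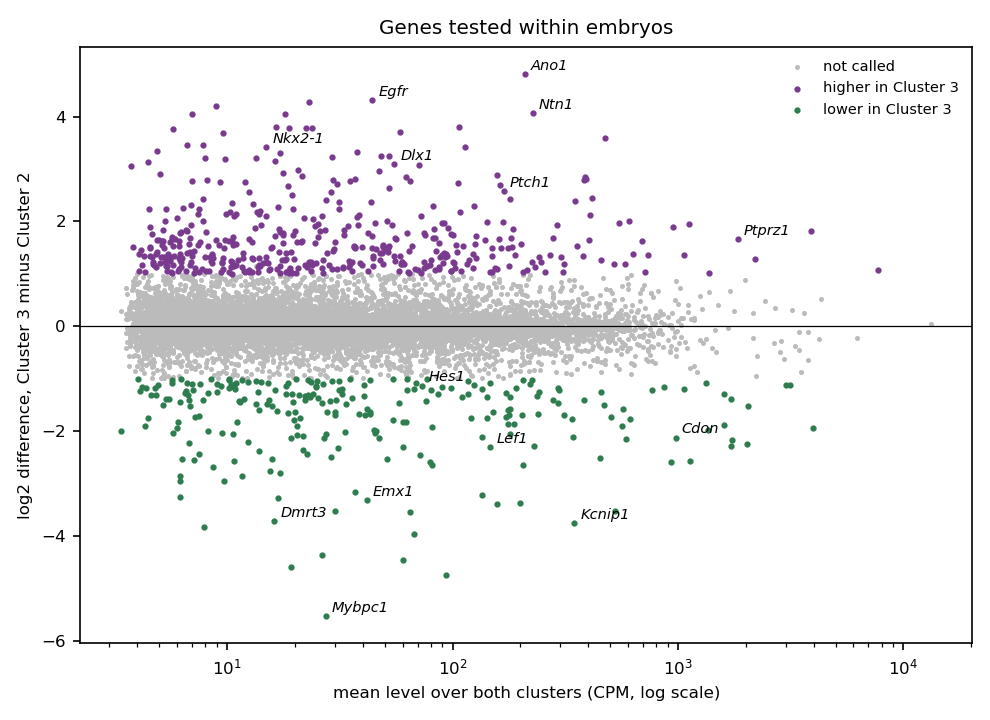
Mean level of each of 11707 genes over both clusters (x axis, CPM, log scale) against the log2 difference of Cluster 3 minus Cluster 2 (y axis), 1 point per gene. Coloured points are the 445 genes called higher and the 246 called lower in Cluster 3, and labels mark named genes; most genes lie near 0, where the median was -0.002.

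Of the marker genes of this comparison, Dlx1 was higher in Cluster 3 and Hes1 in Cluster 2. In the study Hes1 marks all radial glial clusters. Cluster 3 is among them, and the study proposes that it may represent interneuron precursors. Dlx1 (chr2:71528113-71533981, + strand), a homeobox gene of ventral forebrain progenitors and interneurons, stood at 38.1 CPM in the lowest, 101 in the median and 138 in the highest embryo of Cluster 3, against 6.07, 10.8 and 19.7 CPM in Cluster 2. Every embryo of Cluster 3 lay above every embryo of Cluster 2, and the log2 difference was 3.09 ± 0.18 (edgeR adjusted p = 3.16e-08). Hes1 (chr16:30064384-30067796, + strand), a Notch effector that keeps radial glia undifferentiated, stood at 27.3, 47.5 and 67.4 CPM in Cluster 3 against 63.4, 92.5 and 146 CPM in Cluster 2. The ranges of Hes1 touched, since E2-3 in Cluster 3 lay above S1-1 in Cluster 2, but Hes1 was lower in Cluster 3 within 11 of 11 embryos (-1.13 ± 0.06, adjusted p = 1.24e-13). Among the 25 clusters Dlx1 ranked 4 in Cluster 3 and 12 in Cluster 2, while Hes1 ranked 5 in Cluster 3 and 1 in Cluster 2.

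**Figure D2:**
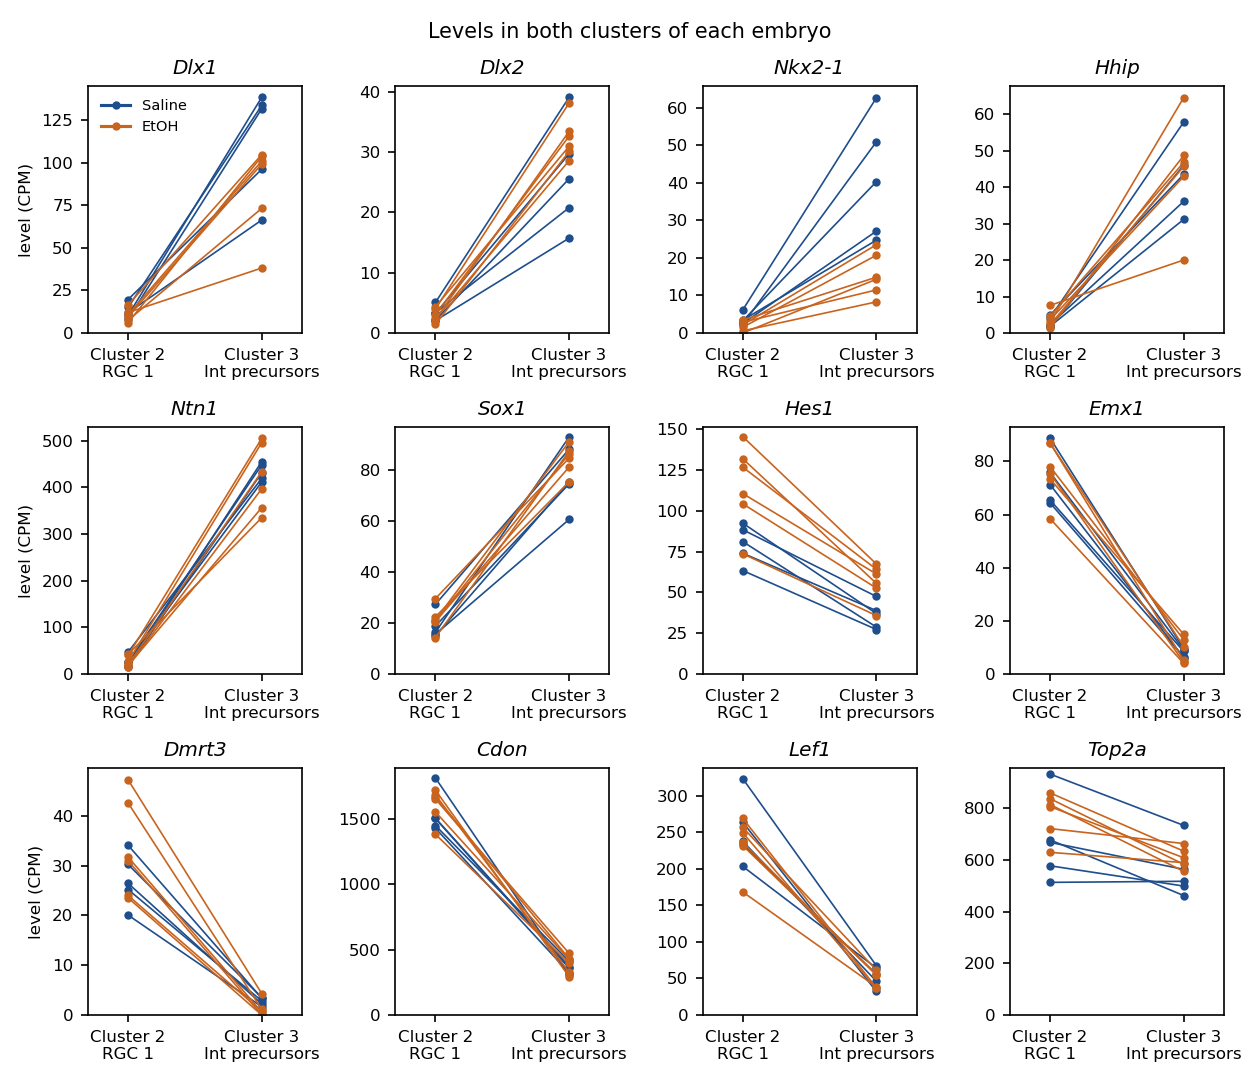
Level of 12 genes (CPM, y axes) in Cluster 2 and Cluster 3, with 1 line per embryo joining its 2 sums, saline embryos in blue and EtOH embryos in orange. Dlx1 climbed from at most 19.7 CPM to at least 38.1 CPM in every embryo, and Emx1 dropped from at least 58.4 CPM to at most 14.9 CPM.

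The nucleus by nucleus view gave the same order for these markers. With each nucleus thinned to 2000 UMIs, a Dlx1 UMI was found in a median of 15.3% of Cluster 3 nuclei over embryos and in 1.15% of Cluster 2 nuclei, beside 1.01% in callosal projection neurons (Cluster 1) and 20.4% in migrating interneurons (Cluster 5). The thinned share in Cluster 2 was close to that in callosal neurons, which should lack the gene. Without thinning the Dlx1 shares were 28.4% in Cluster 3, 4.66% in Cluster 2 and 2.65% in Cluster 1, so that Cluster 2 lay above the callosal neurons, at a median of 6182 UMIs per nucleus in Cluster 3, 7487 in Cluster 2, 6608 in Cluster 1 and 6652 in Cluster 5. Any of Dlx1, Dlx2, Dlx5 and Dlx6 was seen in 18.6% of thinned Cluster 3 nuclei, 2.26% of Cluster 2 nuclei and 1.51% of Cluster 1 nuclei. An Emx1 UMI was found in 1.26% of thinned Cluster 3 nuclei and 13.3% of Cluster 2 nuclei, with 1.31% in Cluster 5, so that Emx1 in Cluster 3 stood at the level of interneurons. Unthinned, the Emx1 shares were 4.61% and 42.4%. Emx2 differed from Emx1 in this respect. It was found in 3.88% of thinned Cluster 3 nuclei and 11.3% of Cluster 2 nuclei, against 1.02% in Cluster 5. Hes1 was found in 7.21% of thinned Cluster 3 nuclei and 18.3% of Cluster 2 nuclei, against 1.06% in Cluster 5 and a median of 0 in Cluster 1 (22.6% and 47.8% unthinned in Clusters 3 and 2).

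Markers of all progenitors were found in both pools. At least 1 of 6 radial glia markers (Hes1, Hes5, Sox2, Nes, Slc1a3 and Fabp7) was seen in 75.1% of thinned Cluster 3 nuclei and 70.1% of Cluster 2 nuclei, against 11.6% in Cluster 1 and 21% in Cluster 5. Top2a, a topoisomerase of dividing cells, was seen in 43.1% and 60.4% of Cluster 3 and Cluster 2 nuclei and in 1.78% of Cluster 1 nuclei. Pax6 was seen in 20.9% of thinned Cluster 3 nuclei, below the 46.9% of Cluster 2 and above the 3.72% of Cluster 5. A Dlx and an Emx gene together were seen in 0.388% of thinned Cluster 3 nuclei and 0.565% of Cluster 2 nuclei, against 0.728% in Cluster 5.

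**Figure D3:**
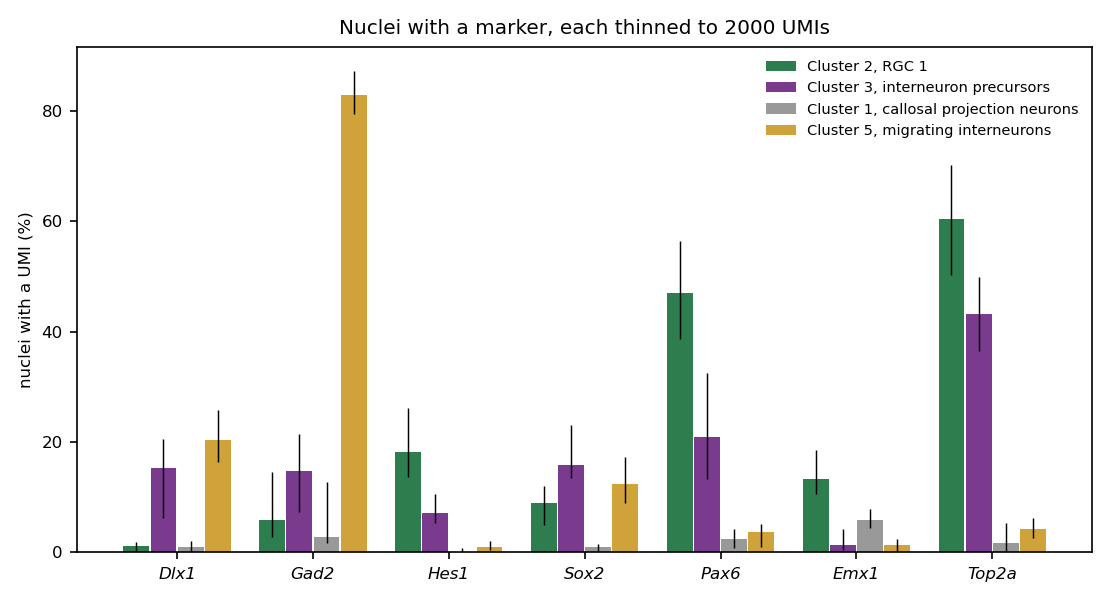
Percent of nuclei with at least 1 UMI of 7 markers after thinning to 2000 UMIs (y axis), in Clusters 2, 3, 1 and 5. Bars give the median over 11 embryos and lines the lowest and highest embryo; Dlx1 reached 15.3% in Cluster 3 and 1.15% in Cluster 2, and Emx1 1.26% and 13.3%.

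Transcription factors of the ventral telencephalon set Cluster 3 apart. Of 11 factors shared by all ganglionic eminences, 7 passed the filter, 6 of them were called higher in Cluster 3 and 0 lower, with a median log2 difference of 2.50 beside -0.002 over all genes. Dlx2, which lies next to Dlx1 in the opposite orientation, stood at 15.7, 30.1 and 39.1 CPM (lowest, median and highest embryo) in Cluster 3 and 1.43, 3.03 and 5.07 CPM in Cluster 2 (3.14 ± 0.12, adjusted p = 2.78e-16). The ranges of Dlx2 did not overlap between the clusters. Six3, a homeobox gene of the rostral and ventral forebrain, was higher by 2.92 ± 0.15 without overlap.

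The ventral factors that mark later steps differed less. Sp9, a zinc finger factor of interneurons and striatal neurons, was 2.37-fold higher, in 10 of 11 embryos on the TMM scale with S2-2 at 5.62 and 5.61 CPM, and Dlx6, which follows Dlx1 and Dlx2 in the same cascade, 2.09-fold (1.06 ± 0.23), in 9 of 11, with overlapping ranges. Dlx6 lost its call without embryo E2-1, without the embryo block and within batch 1. Gsx2, Gsx1, Vax1 and Dlx5 did not pass the filter. Gsx2, a homeobox factor of ventral ventricular progenitors, was at 3.34 to 11.6 CPM in Cluster 3 and 0 to 1.43 CPM in Cluster 2, and Vax1, a ventral forebrain homeobox gene, at 2.25 to 8.29 and 0 to 1.15 CPM.

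Genes of particular eminences varied. Of 8 medial eminence factors 5 were tested, and 2 were called higher. Nkx2-1 (chr12:56531958-56536908, - strand), which defines the medial eminence, stood at 8.29, 23.5 and 62.6 CPM in Cluster 3 against 0, 2.53 and 6.15 CPM in Cluster 2 (3.42 ± 0.15). Olig2, a helix-loop-helix factor of ventral progenitors and later oligodendrocytes, stood at 6.86 to 13.2 CPM against 0 to 1.72 CPM (3.76 ± 0.25), and no cluster had more of it than Cluster 3. Nkx2-1 and Olig2 did not overlap between the clusters.

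The factors that act downstream of Nkx2-1 in young interneurons did not follow it. Lhx6 stood at 1.14 to 12.8 CPM in Cluster 3 and 0.573 to 11.5 CPM in Cluster 2 (0.23 ± 0.29, adjusted p = 0.592), and Sox6, which dorsal progenitors also express, was lower in Cluster 3 by 0.95 ± 0.04 on the log2 scale in 11 of 11 embryos. Of 9 lateral eminence and striatal factors 8 were tested: Isl1, a LIM homeobox gene of striatal neurons, was called higher (1.67 ± 0.18) and Ikzf1, a zinc finger factor, lower (-1.45 ± 0.19). Of 6 caudal eminence factors 4 were tested: Nr2f2, an orphan nuclear receptor, was called higher (1.05 ± 0.12) and Sp8 lower (-1.38 ± 0.20). The call of Nr2f2 was lost within batch 1, in saline embryos alone, with thinned nuclei and without embryo S2-1.

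Of 4 genes for the synthesis and transport of GABA, the transmitter of interneurons, 3 were tested, 1 was called higher and 0 lower. The enzymes of its synthesis were not called over all embryos. Gad2, a GABA synthesizing enzyme, differed by 0.93 ± 0.14 (adjusted p = 2.42e-04), short of 2-fold, and Gad1, the other, by 0.06 ± 0.17 (adjusted p = 0.854). Gad2 was called with thinned nuclei, without the deepest nuclei, in batch 2 alone and in EtOH embryos alone. A Gad2 UMI was seen in 14.7% of thinned Cluster 3 nuclei and 5.92% of Cluster 2 nuclei, against 83.0% in migrating interneurons and 2.77% in callosal neurons (unthinned 22.6%, 11.5%, 97.4% and 8.39%). Between embryos the unthinned Gad2 shares ran from 2.87% to 42.1% in callosal neurons, which should lack the gene. They ran from 6.21% to 46.5% in Cluster 2 and from 14.4% to 47.2% in Cluster 3. The part of this spread in the difference between clusters was not tested. Slc32a1, the vesicular transporter, did not pass the filter.

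Dorsal patterning factors showed the opposite direction. Of 13 members 12 were tested, 9 were called lower in Cluster 3 and 0 higher, and the median log2 difference was -1.51. Emx1 (chr6:85187438-85204462, + strand), a homeobox gene confined to the dorsal telencephalon, stood at 4.01, 8.50 and 14.9 CPM in Cluster 3 and 58.4, 75.4 and 88.7 CPM in Cluster 2 (-3.31 ± 0.11, adjusted p = 4.85e-18). Dmrt3 (chr19:25610301-25623921, + strand), a doublesex-related factor of the medial and dorsal pallium, stood at 0, 1.67 and 4.30 CPM against 20.1, 30.2 and 47.2 CPM (-3.73 ± 0.18), and its relative Dmrta2 was lower by 2.32 ± 0.11 on the log2 scale. Emx1, Dmrt3 and Dmrta2 were each lower in Cluster 3 in every embryo, with no overlap.

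The other dorsal factors called lower were Tfap2c (-1.97 ± 0.17), an AP-2 factor of basal progenitors, Lhx2 (-1.86 ± 0.05), the LIM homeobox selector of cortex, Emx2 (-1.68 ± 0.08), Fezf2 (-1.33 ± 0.14), Pax6 (-1.32 ± 0.08) and Otx1 (-1.30 ± 0.09). Pax6 was still at 96.1 to 192 CPM in Cluster 3, below the 263 to 412 CPM of Cluster 2. The zinc finger factor Bcl11a (-0.72 ± 0.04) was lower but within 2-fold, and Nr2e1 (0.08 ± 0.08, adjusted p = 0.503) did not pass the test. Dmrta1 did not pass the filter.

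Of 11 genes of the cascade from dorsal progenitor to projection neuron, 10 were in the files and 8 were tested. Their median log2 difference was 0.31. At any fold the edgeR adjusted p was under 0.05 for 4 higher and 2 lower genes. Neurog2, the proneural factor of cortical progenitors, was called lower, at 4.57 to 21.6 CPM in Cluster 3 and 23.5 to 33.6 CPM in Cluster 2 (-1.31 ± 0.13). Insm1, a zinc finger factor of dividing precursors that both lineages use, was called higher (1.09 ± 0.15), but not without embryo S1-1 or in batch 2 alone. Btg2, expressed in neurogenic divisions, was higher by 0.71 ± 0.06, and Eomes, the marker of intermediate progenitors, lower by 0.47 ± 0.11 on the log2 scale, both within 2-fold. Neurod2, the study's marker of projection neurons, was not lower in Cluster 3, with a median embryo at 21.4 CPM against 15.9 CPM in Cluster 2. For Neurod6 the median embryo was at 21.9 CPM against 16.5 CPM. Both had overlapping ranges, and neither was higher in every embryo.

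Radial glia genes split between the pools. Of 18 members 16 were tested, 5 were called higher in Cluster 3 and 3 lower, with a median of 0.42. Sox1 (2.02 ± 0.08) and Sox2 (1.07 ± 0.07), both SoxB1 factors of neural progenitors, Ptprz1 (1.66 ± 0.10), a receptor phosphatase, Ednrb (1.37 ± 0.06), an endothelin receptor, and Fabp7 (1.12 ± 0.08), a lipid-binding protein of radial glia, were higher without overlap. Sox1, for example, stood at 60.7, 84.8 and 93.0 CPM in Cluster 3 against 14.3, 20.6 and 29.6 CPM in Cluster 2. The lower genes were Hopx (-1.82 ± 0.15), a marker of outer radial glia in other species, Id4 (-1.35 ± 0.05), a helix-loop-helix inhibitor, and Hes1. For Sox1, Ptprz1, Ednrb and Fabp7 no cluster of the 25 ranked above Cluster 3.

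In the Notch pathway 18 of 21 genes were tested. The ligand Jag1 stood at 35.9, 53.3 and 63.0 CPM in Cluster 3 against 7.45, 10.4 and 16.6 CPM in Cluster 2 (2.23 ± 0.13, adjusted p = 3.01e-11). The Fringe enzyme Mfng was just past the limit (1.02 ± 0.12), and the target Hey2 was called lower (-1.26 ± 0.22). The median over the pathway was -0.03, and at any fold the edgeR adjusted p was under 0.05 for 7 higher and 8 lower genes. Hes5, a radial glia marker named above, went the other way from Hes1 and Hey2. It stood at 44.03 to 93.2 CPM in Cluster 3 and 31.3 to 57.97 CPM in Cluster 2, higher in every embryo, with overlapping ranges. A Hes5 UMI was seen in a median of 12.96% of thinned Cluster 3 nuclei and 7.76% of Cluster 2 nuclei. Mfng lost its call in 7 alternative fits, among them batch 1 alone, saline embryos alone and the fits without S2-1, E1-1 or E2-4, at differences close to the limit.

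Sonic hedgehog pathway genes differed by role. Of 13 members 12 were tested, 4 were called higher and 2 lower. The higher genes described here are induced by hedgehog signalling. Hhip (chr8:79965851-80058006, - strand), the secreted ligand trap, stood at 20.05, 45.8 and 64.7 CPM in Cluster 3 against 1.43, 2.87 and 7.59 CPM in Cluster 2 (3.78 ± 0.18, adjusted p = 4.21e-12). Ptch1 (chr13:63508328-63573598, - strand), the receptor, stood at 198, 273 and 432 CPM against 38.9, 44.1 and 77.7 CPM (2.57 ± 0.10). Both were without overlap, and Cluster 3 ranked above all other clusters for each. The transcription factor Gli1 was higher by 1.66 ± 0.19, in 11 of 11 embryos, with overlapping ranges.

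The co-receptors Cdon, Gas1 and Boc, which bind the ligand at the cell surface, went the other way. Cdon stood at 294, 370 and 472 CPM in Cluster 3 against 1383, 1554 and 1814 CPM in Cluster 2 (-2.13 ± 0.08, adjusted p = 6.28e-10), and Gas1 was lower by 1.69 ± 0.10 on the log2 scale, both without overlap. Boc, the third of the co-receptors named here, was lower by 0.88 ± 0.08, short of 2-fold, and was called in 1 alternative, with thinned nuclei. The signal transducer Smo (-0.07 ± 0.05, adjusted p = 0.282) and Gli2 (-0.04 ± 0.05, adjusted p = 0.551) did not pass the test, and Gli3 differed by -0.32 ± 0.05. The ligand gene Shh did not pass the filter, at 0 to 6.34 CPM in Cluster 3 and 0 to 0.846 CPM in Cluster 2.

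Wnt pathway genes were called in both directions, 2 higher and 4 lower among 28 tested of 39, with a median of -0.26. The higher genes were Lgr4, a receptor for R-spondins, at 58.3, 95.4 and 123 CPM in Cluster 3 against 6.07, 14.9 and 17.3 CPM in Cluster 2 (2.64 ± 0.08), and the ligand Wnt7b (1.52 ± 0.15). Lef1, a transcription factor of canonical Wnt signalling, stood at 32.2, 54.9 and 67.4 CPM in Cluster 3 against 168, 238 and 324 CPM in Cluster 2 (-2.30 ± 0.12, adjusted p = 1.67e-08), and no cluster had more Lef1 than Cluster 2. Rnf43 (-3.29 ± 0.16) and Axin2 (-1.37 ± 0.09), feedback inhibitors that Wnt signalling induces, were also lower without overlap. The dorsomedial ligand Wnt8b was lower by 2.20 ± 0.36 with overlapping ranges, 0 to 11.6 CPM against 7.59 to 46.9 CPM.

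Among receptor tyrosine kinase genes, Egfr (chr11:16752203-16918158, + strand) came next to Ano1 among the leading higher genes. It stood at 15.2, 105 and 127 CPM in Cluster 3 against 1.15, 2.29 and 6.13 CPM in Cluster 2 (4.32 ± 0.33, adjusted p = 1.10e-06). In Cluster 3 Egfr was at 22.3 CPM in S2-1, 15.2 CPM in S2-2 and 22.9 CPM in E1-1 and at 91.3 to 127 CPM in the other 8 embryos, which spanned both treatments and both batches. Of 18 genes of this family and of its feedback 12 were tested, 4 were called higher and 0 lower, with a median of 0.54. The others were the ligand Fgf15 (2.35 ± 0.16), the feedback inhibitor Spry2 (1.61 ± 0.16) and the ETS factor Etv4 (1.21 ± 0.18). Fgfr3, a receptor of dorsal radial glia, was lower by 0.94 ± 0.13, short of the limit, and was called with counts summed per dam, without embryo S2-1, in batch 1 alone and in EtOH embryos alone.

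In the BMP pathway 10 of 16 genes were tested, and the ligands Bmp6 (1.17 ± 0.40, adjusted p = 0.0375) and Bmp7 (-1.23 ± 0.19) were called in opposite directions. Bmp6 was higher in 8 of 11 embryos and lost its call in 5 alternative fits, among them batch 2 alone, saline embryos alone and the fits without E2-1 or E2-4. In the retinoic acid pathway 5 of 13 genes were tested, 1 was called higher and 0 lower, and the median was 0.60.

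**Figure D4:**
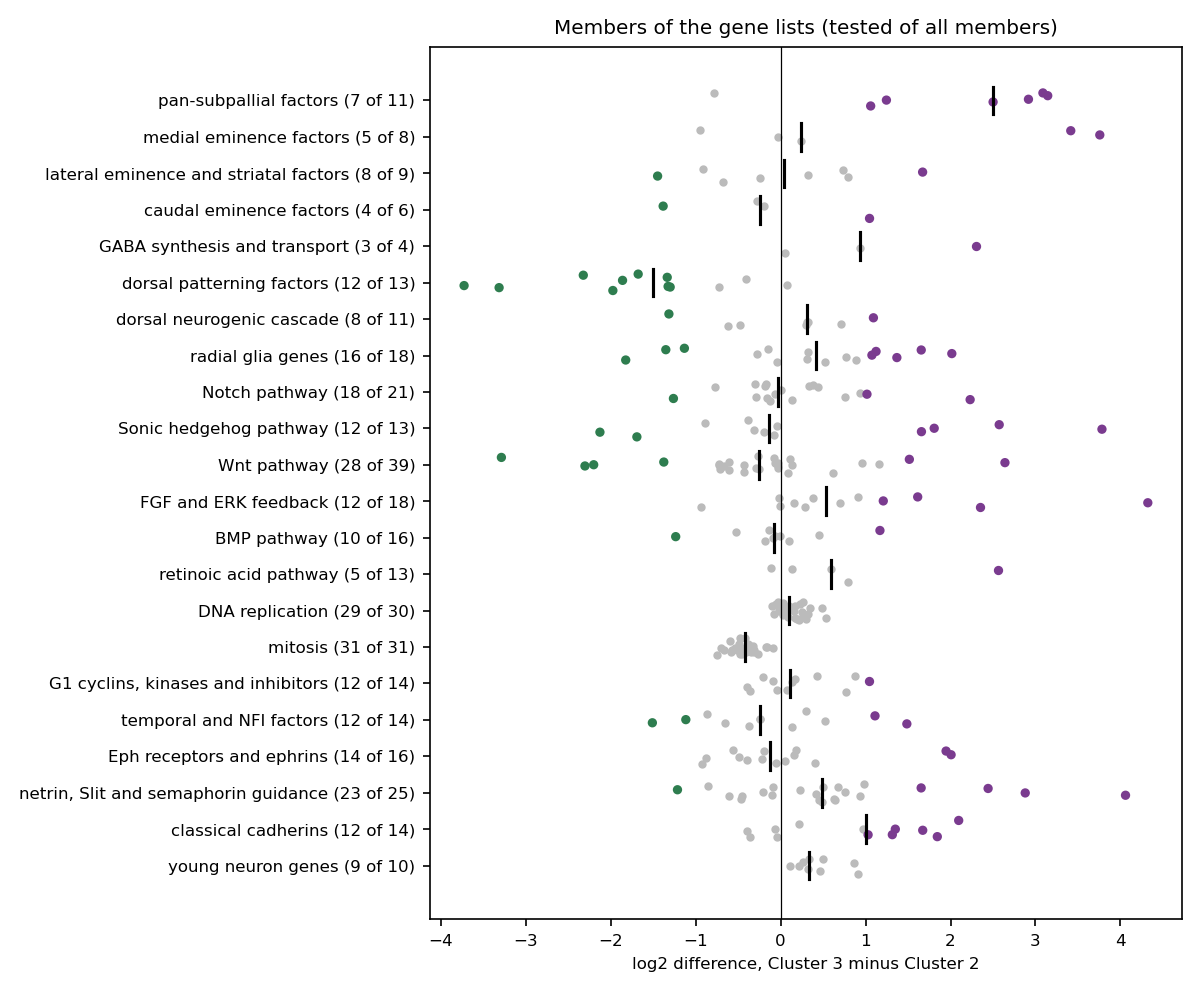
Log2 difference of Cluster 3 minus Cluster 2 (x axis) for the tested members of each gene list (rows), 1 point per gene, with the list's median as a bar and called genes in purple (higher) or green (lower). The median was 2.50 for the factors shared by all ventral eminences and -1.51 for dorsal patterning factors, while DNA replication genes (0.10) and mitosis genes (-0.42) stayed within 2-fold.

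Cell cycle genes differed little in size. Of 29 tested DNA replication genes 0 were called. The edgeR adjusted p was under 0.05 for 8 of them, all higher in Cluster 3, with differences between -0.10 and 0.53 and a median of 0.10. Of 31 mitosis genes 0 were called, the adjusted p was under 0.05 for 28, all lower in Cluster 3, and the differences ran from -0.75 to -0.09 with a median of -0.42. Top2a stood at 463, 584 and 734 CPM in Cluster 3 and 514, 722 and 933 CPM in Cluster 2 (-0.35 ± 0.05, adjusted p = 1.49e-05), lower in 10 of 11 embryos. Mki67, a proliferation marker, stood at 204 to 332 CPM and 218 to 352 CPM (-0.17 ± 0.08, adjusted p = 0.141).

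Regulators of G1 were split. Of 12 tested genes only cyclin D1, Ccnd1, was called, at 16.6 to 31.0 CPM in Cluster 3 against 8.25 to 17.2 CPM in Cluster 2 (1.04 ± 0.09). Cdk6, its kinase partner, was higher by 0.77 ± 0.11, and cyclin D2, Ccnd2, was lower by 0.39 ± 0.10 on the log2 scale. Among 12 tested genes that time progenitor output, 2 were called higher and 2 lower. Lin28b (1.49 ± 0.10), an RNA-binding protein of early progenitors, and the POU factor Pou3f2 (1.11 ± 0.08) were higher. All 4 nuclear factor I genes were lower in 11 of 11 embryos, Nfix (-1.51 ± 0.04) and Nfic (-1.12 ± 0.09) past the limit and Nfib (-0.87 ± 0.04) and Nfia (-0.65 ± 0.03) within it.

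Guidance and adhesion genes held several of the larger differences, although most of those tested were not called. Of 23 tested netrin, Slit and semaphorin genes with their receptors, 4 were called higher and 1 lower. Ntn1 (chr11:68209364-68400823, - strand), the secreted guidance cue netrin, stood at 335, 431 and 505 CPM in Cluster 3 against 15.9, 25.4 and 47.0 CPM in Cluster 2 (4.06 ± 0.18, adjusted p = 7.63e-09), and no cluster had more of it. The repellent Slit1 (2.88 ± 0.12) and the transmembrane semaphorins Sema6d (2.44 ± 0.18) and Sema6a (1.65 ± 0.09) were higher without overlap, while Slit2 was lower (-1.21 ± 0.18) with overlapping ranges.

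Of 14 tested Eph receptor and ephrin genes, the ligand Efna5 (2.01 ± 0.07) and the receptor Epha3 (1.95 ± 0.11) were called higher and 0 lower. The median of these genes was -0.13, and at any fold the adjusted p was under 0.05 for 3 higher and 5 lower genes. Of 12 tested classical cadherins, which join cells by calcium-dependent contacts, 6 were called higher and 0 lower, with a median of 1.00: Cdh22 (2.10 ± 0.09), Cdh7 (1.84 ± 0.16), Cdh11 (1.67 ± 0.16), Cdh8 (1.35 ± 0.08), Cdh6 (1.32 ± 0.12) and Cdh4 (1.03 ± 0.06). These 6 did not overlap between clusters, and Cdh4 lost its call in 5 alternative fits, among them those without S2-2 or E1-2. Of 9 tested young neuron genes 0 were called, but the adjusted p of 8 was under 0.05 and all 8 were higher in Cluster 3, led by Elavl3 (0.91 ± 0.05), a neuronal RNA-binding protein, and Snap25 (0.87 ± 0.10), a synaptic vesicle fusion protein.

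Among all genes tested, list members included, 274 genes called higher and 172 called lower had the same sign in all embryos and a mean of at least 20 CPM in the higher cluster, and the 15 of each with the largest difference did not overlap between clusters. Ano1 (chr7:144588549-144751974, - strand), a calcium-activated chloride channel, led the higher genes at 285, 405 and 548 CPM against 8.49, 12.2 and 27.6 CPM (4.81 ± 0.13, adjusted p = 2.53e-11). Aldh1l1, a folate enzyme and astrocyte marker, followed Egfr at 19.97, 37.4 and 81.2 CPM against 0.274, 2.16 and 7.87 CPM (4.27 ± 0.28). For 6 of these 15 genes, and for 107 of all 445 called higher, Cluster 3 ranked above all other clusters. These genes were chosen for being high in Cluster 3, and no share over all genes tested is given beside them. Such counts are descriptions and no test of how specific the genes are.

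After Ntn1 came the homeobox gene Otx2 (4.05 ± 0.23), the guanine nucleotide exchange factor Arhgef6 (3.81 ± 0.13), the kinase Stk33 (3.80 ± 0.13), Gm973 (3.79 ± 0.19), the endocytic receptor Lrp2 (3.78 ± 0.14), Hhip, the antisense transcript Otx2os1 (3.71 ± 0.30), Luzp2 (3.59 ± 0.27), the sialyltransferase St6galnac5 (3.42 ± 0.11), Nkx2-1 and Gm14342 (3.33 ± 0.14). Lrp2, a surface receptor of the forebrain neuroepithelium, stood at 18.2, 34.9 and 53.4 CPM against 1.52, 2.29 and 5.22 CPM.

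Mybpc1 (chr10:88518279-88605152, - strand), a myosin-binding protein, led the lower genes at 0, 0.945 and 2.87 CPM in Cluster 3 against 14.1, 56.9 and 79.6 CPM in Cluster 2 (-5.53 ± 0.16, adjusted p = 1.01e-18). Adamts19, an extracellular protease, stood at 1.14, 8.17 and 12.9 CPM against 78.2, 183 and 298 CPM (-4.74 ± 0.16). Cluster 2 ranked above all other clusters for both, as it did for 7 of the 15 leading lower genes and 64 of all 246 called lower. A further 43 of the 246 were highest in Cluster 12, the non-mitotic RGCs. The genes called lower were chosen for being higher in Cluster 2 than in Cluster 3, so these counts are descriptions too.

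The next lower genes were Cav1 (-4.59 ± 0.15), the coat protein of caveolae, E330013P04Rik (-4.47 ± 0.12), Dct (-4.36 ± 0.23), a melanin pathway enzyme, Gm15398 (-3.97 ± 0.18), the potassium channel interacting protein Kcnip1 (-3.76 ± 0.23), Dmrt3, P3h2 (-3.55 ± 0.16), Pcdh15 (-3.53 ± 0.29), Tmem132cos (-3.52 ± 0.14), Dok5 (-3.38 ± 0.11), Tmem132c (-3.38 ± 0.20), Emx1 and Rnf43. Kcnip1 was lowest of the 25 clusters in Cluster 3 and highest in Cluster 2, at 29.8 to 83.2 CPM and 223 to 886 CPM. Embryo S2-1 had the lowest Cluster 2 level for 11 of the 15 leading lower genes, the exceptions being Adamts19, Dct, Dmrt3 and Emx1.

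Several of these genes overlap a gene on the other strand, among them Otx2 with Otx2os1, Pcdh15 with Gm15398, Tmem132c with Tmem132cos, Dlx1 with Dlx1as and St6galnac5 with Pigk. The study ran Cell Ranger with its default parameters, which for this 3′ kit count reads on the sense strand of a gene, but the strand setting itself is not given in the sources used here. Whether such partners share reads was not tested, and their separate values are uncertain.

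Marker lists of other cell types were summed beside these results. Blood, endothelial, microglial and fibroblast or pericyte markers had overlapping summed levels in Clusters 3 and 2: 17.7 to 180 and 18.8 to 156 CPM, 5.72 to 22.9 and 8.63 to 16.7 CPM, 14.3 to 50.4 and 16.6 to 63.0 CPM, and 13.04 to 29.8 and 17.5 to 43.3 CPM. The 5 oligodendrocyte precursor markers summed to 12.6 to 46.4 CPM in Cluster 3 and 1.52 to 8.60 CPM in Cluster 2. Among them Olig2 was the tested gene, Pdgfra was at 1.43 to 31.5 CPM in Cluster 3 and Sox10 at 0 to 4.97 CPM.

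The 7 thalamic markers summed to 624 to 911 CPM in Cluster 3 and 365 to 527 CPM in Cluster 2. Their members differed in direction: Ntng1 (1.49 ± 0.19) and Tcf7l2 (0.61 ± 0.04) were higher, Lhx9 (-2.13 ± 0.27) was lower, and Gbx2 was at 0 in Cluster 3 of all 11 embryos, which allows 3 counts per library. The 8 hem and choroid markers summed to 59.4 to 178 CPM and 33.4 to 152 CPM, with Otx2 higher and Wnt8b lower in Cluster 3. The part of these cell types in the differences was not tested.

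The comparison of treatments asked whether the difference between interneuron precursors and RGC 1 was larger or smaller after EtOH. The treatment label did not define the clusters. However, the study corrected for batch and dam before clustering, and each dam had a single treatment. The clusters are therefore not free of the treatment, and the part of this correction was not tested. The interaction of treatment and cluster was called for 0 of 11707 genes by edgeR's quasi-likelihood test and for 0 by DESeq2, with 501 and 241 genes at an unadjusted p under 0.05. Without the library labelled S2-4 edgeR called 1 gene, Pigk, an enzyme of GPI anchor attachment (log2 interaction 0.99, adjusted p = 0.0042). Without the filter on low counts edgeR called 58 genes, 57 of which had been tested with the filter too, so the count of 0 rests on that setting. On simulated counts this test found 1% of genes changed 1.5-fold and 95.5% of genes changed 3-fold, so small differences between treatments were not detectable. The simulation gave every gene the same spread and changed only genes with enough counts. In the data, Dmrt3 and A230006K03Rik each had an interaction of -1.78 and were not called under the filter, so larger differences could be missed too.

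The genes with the smallest interaction p values were all short of the threshold. The within-embryo difference was larger in EtOH than in saline embryos, on the log2 scale, by 0.45 ± 0.09 for Klf7, a zinc finger factor (adjusted p = 0.937), by 0.62 ± 0.14 for Homer3 and by 0.84 ± 0.18 for Pigk. It was smaller or more negative by -1.13 ± 0.27 for P3h2, -1.78 ± 0.44 for A230006K03Rik and -0.95 ± 0.23 for Rspo3, a secreted Wnt agonist (adjusted p = 0.947). For 6 of the markers and pathway genes described above the interactions were -0.03 ± 0.44 for Dlx1, 0.38 ± 0.29 for Dlx2, -0.27 ± 0.27 for Emx1, 0.12 ± 0.13 for Hes1, 0.15 ± 0.20 for Ptch1 and -0.13 ± 0.39 for Ntn1. Without S2-4 these 6 were -0.05 ± 0.48, 0.31 ± 0.32, -0.26 ± 0.29, 0.17 ± 0.13, 0.12 ± 0.22 and -0.02 ± 0.40 in the same order. The interactions of the genes with the smallest p values were then 0.43 ± 0.10 for Klf7, 0.60 ± 0.16 for Homer3, -1.25 ± 0.26 for P3h2, -1.79 ± 0.46 for A230006K03Rik and -1.07 ± 0.22 for Rspo3, and Pigk alone was called.

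Other leading genes had larger interactions. Of the 30 leading genes, 7 were among the 58 called without the filter on low counts: P3h2 and, with their values under the filter, Egfr (1.19 ± 0.85), Otx2os1 (1.10 ± 0.69), Luzp2 (1.01 ± 0.45), Adamts19 (-1.09 ± 0.37), Kcnip1 (-0.79 ± 0.43) and Pcdh15 (-1.10 ± 0.49). The sizes without the filter were close to these, but the SE were smaller, as for Pcdh15 (-1.10 ± 0.10, adjusted p = 4.48e-22) and Luzp2 (0.998 ± 0.101, adjusted p = 4.55e-19). Dmrt3, with an interaction of -1.78 ± 0.48, had an unadjusted p of 0.0012 by edgeR under the filter and was not called in either fit. Without S2-4 the interactions were 1.24 for Egfr, 1.18 for Otx2os1, 1.17 for Luzp2, -1.003 for Adamts19, -0.97 for Kcnip1, -1.35 for Pcdh15 and -1.75 for Dmrt3, none of them called.

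In Cluster 3 itself, 2 ventral factors had levels that did not overlap between treatments, chosen after their values were seen. Nkx2-1 was at 24.7 to 62.6 CPM in the 5 saline embryos and 8.29 to 23.5 CPM in the 6 EtOH embryos, while Gsx2 was at 3.34 to 4.05 CPM in saline and 5.73 to 11.6 CPM in EtOH embryos. S2-4, at 27.1 CPM of Nkx2-1 and 3.79 CPM of Gsx2, was inside the saline range and at neither end of it. Of all genes tested, 268 (2.29%) had levels in Cluster 3 that did not overlap between treatments, 170 (1.45%) higher and 98 (0.837%) lower after EtOH. Without S2-4 there were 1243 (10.6%), 972 (8.30%) higher and 271 (2.31%) lower, so this count rests on that library, while without any other single embryo it was 306 to 472. Without S2-4 every saline embryo also lay above every EtOH embryo in median UMIs per nucleus. The interaction of Nkx2-1 was -0.29 ± 0.46, with an unadjusted p of 0.536 by edgeR, and -0.34 ± 0.49 without S2-4, and Gsx2 was below the filter.

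**Figure D5:**
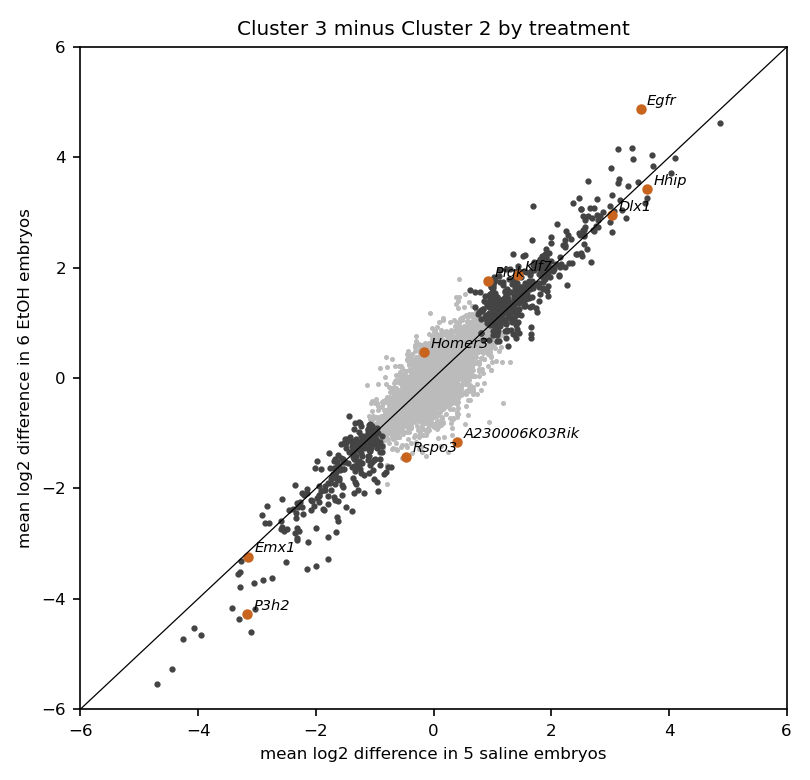
Mean within-embryo log2 difference of Cluster 3 minus Cluster 2 in 5 saline embryos (x axis) and 6 EtOH embryos (y axis), 1 point per gene, with the line of equal differences; dark points are the 691 genes called over all embryos and orange points 10 labelled genes. The interaction was called for 0 of 11707 genes, and Dlx1 and Emx1 lie close to the line.

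The share of interneuron precursors among the nuclei of both pools ranged from 22.2% in S2-2 to 74.3% in S2-1, embryos of the same saline dam. Its mean was 48.1% ± 18.7 (SD) over the 5 saline embryos and 44.96% ± 10.8 (SD) over the 6 EtOH embryos. The difference of EtOH minus saline was -3.13 percentage points (exact two-sided permutation test over 462 arrangements, p = 0.732), and with labels exchanged within batches the exact p was 0.738. Without S2-4 it was -4.51 points (exact permutation p = 0.662). By dam the mean share was 50.7% for S1, 46.4% for S2, 36.1% for E1 and 49.4% for E2. Without embryo S2-1 the difference turned to 3.42 points. The clusters behind this share were made after the correction for dam, which is nested in treatment.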

How the data were processed

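UMI counts per gene and nucleus were used as the authors deposited them, in 275 tables, 1 per embryo and cluster, of 23513 gene symbols each. Nuclei were profiled with the 10X droplet chemistry, and Cell Ranger and mm10 are named in the submitters' processing notes. Per the study's methods the authors filtered nuclei on genes, counts and mitochondrial, ribosomal and hemoglobin transcripts. The nuclei were clustered in Seurat after correction for batch and dam, so the clusters rest on these same counts. Doublets were not called here, 0 value columns belonged to no sample, and 1 saline embryo that the study removed was not analysed here.

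Counts were summed per embryo and cluster and tested with edgeR 4.0.16 in R 4.3.3 (TMM scaling, filterByExpr by cluster, robust quasi-likelihood fit, embryo as block), with DESeq2 1.42.0 as an alternative. Single values were tested by exact permutation in Python 3.11.15 with SciPy 1.17.1. Pairing came from the shared embryo. The deviations of its 2 sums from the mean of its treatment in the same cluster correlated at 0.0199 to 0.821 over 7120 genes. The highest value was that of S2-4, the library labelled saline that lay with the EtOH embryos. Correlations in the EtOH embryos were only 0.0199 to 0.181. Of the 11 embryos, 9 matched their own partner best, the exceptions being E2-1 and E2-3. Sums of different embryos of 1 dam differed by a chi-square of 1.92 to 25.2 per gene. None of these pairs was counted as a repeat deposit, and embryos of different dams were not compared in this way. The fit was tested on simulated data, with the same spread for every gene and an embryo effect shared by both clusters. In the comparison of clusters edgeR found 78% of 200 genes changed 1.5-fold among 11557 genes and 100% of 200 changed 3-fold among 11563. In the interaction edgeR found 1% among 11547 and 95.5% among 11550.

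Members and gene lists were chosen with earlier results of these data known. Named were Dlx1 and Hes1, list members (in lists of over 12 measured genes, up to 4 called genes per direction, with Top2a and Mki67), and the 15 genes per direction with the largest difference among those called, of the same sign in 11 embryos and with at least 20 CPM in the higher cluster. For the interaction, where 0 genes were called, the 3 per direction with the smallest p were named. Some list members are counted but not reported here. Alternatives changed the tool, scaling, filter, thinning, deepest nuclei, block, batch, treatment, fold limit and embryos. The distance of each embryo to the group means was taken on log2(CPM + 1). Gene positions are those of GENCODE on the same build, and promoters those of RefSeq. Intervals and limits for counts of 0 cover counting error only.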

Additional observations from a re-analysis of the deposited data

Results flagged for a closer look

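Within-embryo differences of Cluster 3 minus Cluster 2 were screened for an embryo far from the others of its treatment, in 254 groups of 5 or 6 embryos. By chance about 1 in 20 such groups would hold one. There were 15, of which S2-2 held 4, S2-1 held 3 and E1-2 held 2.

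The median UMIs per nucleus differed by -1398 in S2-4, against -1954.5 to -1808.5 in the other saline embryos. This is the library labelled saline whose expression lay with the EtOH embryos.

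Embryo S2-2, which had the fewest interneuron precursors relative to RGC 1, stood apart for 4 genes on the log2 scale. Its difference was -1.87 for Lhx6 (others 0.10 to 0.58), -0.70 for Pax6 (others -1.62 to -1.40), -0.44 for Neurog2 (others -1.42 to -1.17) and 2.47 for Ptprz1 (others 1.36 to 1.57). For Pax6 and Neurog2 the direction was the same as in the other embryos.

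Embryo S2-1, which had the most interneuron precursors relative to RGC 1, stood apart for Wnt7b at 2.06 (others 1.18 to 1.33), for Cdk6 at 0.12 (others 0.82 to 1.04) and for Nfib at -0.56 (others -0.95 to -0.86). Embryo E1-2, with the fewest Cluster 3 nuclei, stood apart for Gas1 at -0.68 (others -2.05 to -1.65) and for Ccnd2 at 0.027 (others -0.51 to -0.31).

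The remaining 5 were single genes: Dlx6 at 2.24 in S1-2 (others 0.37 to 0.90), Rarb, a retinoic acid receptor, at 0.50 in S1-1 (others 0.80 to 0.89), Gad2 at 2.63 in E2-1 (others 0.18 to 1.09), Nfia at -0.79 in E1-1 (others -0.67 to -0.61) and Elavl3 at 1.27 in E2-4 (others 0.70 to 0.87).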

How the results depend on the processing

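The 691 genes called between clusters had the same sign in every alternative fit that tested them. Counts within 1.5 times of 691 came from DESeq2 (702, of which 689 were among the 691), library totals (694), thinned nuclei (472), no deepest nuclei (763), batch 1 (809), batch 2 (725), saline embryos (835), EtOH embryos (652) and leaving out 1 embryo at a time (648 to 715). The fit with no replicate block, which ignores the pairing by embryo, called 707. Without the filter on low counts the number was 1282 (843 higher, 439 lower), with counts summed per dam 1123 (716 and 407), where more genes were tested, and with the study's lower fold limit 2697 (1509 and 1188).

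The treatment by cluster interaction stayed at 0 genes with DESeq2, library totals, a batch term and without the deepest nuclei. It was 58 without the filter on low counts (35 higher, 23 lower), 2 with thinned nuclei and 2 with dam sums (Rspo2 and Lrfn5), and 0 to 1 when 1 embryo was left out, with Pigk called without S2-4 and Pde4b without E1-2. The causes were not tested, but the filter did not remove 57 of those 58 genes.

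The difference of EtOH minus saline in the share of Cluster 3 moved between -9.60 (without S2-2) and 3.42 points (without S2-1) when 1 embryo was left out. Genes per nucleus differed by -372.8 without thinning (exact sign-flip permutation p = 0.000977), where the depth of the clusters differs, and by -4.4 to -2.0 with 1 embryo left out. The difference in UMIs ran from -1440.85 to -1321.3. Differences near 0 changed sign: Gad1 with DESeq2 (-0.035), in batch 1 (-0.13), in EtOH embryos (-0.17) and, with 1 embryo left out, from -0.013 to 0.12, Nr2e1 in saline embryos (-0.013), and Gli2 (0.015) and Mki67 (0.028) in batch 1. Calls were lost in 1 or 2 fits for Bmp7, Ccnd1, Etv4, Fabp7, Hey2 and Pou3f2, where the difference fell under 2-fold in a batch or treatment alone or with thinned nuclei, for Slit2 in saline embryos (-0.97, adjusted p = 0.0609), and for Ntng1 in batch 1 (1.60, adjusted p = 0.0741) and Wnt8b in EtOH embryos (-1.96, adjusted p = 0.0913), where the difference stayed above 2-fold. Gad2, Elavl3, Snap25, Bcl11b, Sox6 and Boc passed the limit with thinned nuclei. Cdk6 passed it in batch 1 alone (1.05) and Nfib without the deepest nuclei (-1.01). Genes with Cluster 3 levels that did not overlap between treatments numbered 306 to 1243 with 1 embryo left out, against 268, with the highest number without S2-4 and 472 and 432 without E1-1 and E1-2, an alternative chosen after seeing the data.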
